A study of Mus musculus with 6 samples.

Results

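The Notch pathway was followed in cultured fat cells through 10 genes, of 49671 in the deposited table, chosen by mouse gene symbol: 4 receptor genes (Notch1, Notch2, Notch3 and Notch4), 3 ligand genes (Jag1, Jag2 and Dll1) and 3 target genes (Hes1, Hey1 and Heyl). All 10 were found, each as 1 Ensembl gene. The cells were 1 immortalised line. Its founders were preadipocytes sorted from the inguinal white fat of Tcf7l2 F/F mice (C57BL/6, 3 months old) and were immortalised with retroviral SV40 large T antigen, and the line also carried CreERT2 from the retroviral vector pMSCV. Control libraries (n = 3, genotype label wild type) came from cells given the solvent EtOH and knockout libraries (n = 3, genotype label Tcf7l2 knock out) from cells given 4-hydroxytamoxifen, which activates CreERT2, in both cases for 24 h starting 2 days before differentiation was induced. The floxed allele, large T antigen and CreERT2 were thus present in both groups, and the deletion cannot be told apart from the exposure to 4-hydroxytamoxifen. Cells were differentiated with dexamethasone, isobutylmethylxanthine and insulin to day 8, with a further agent at 5 nM that the labels call W1929, W1930 and W1931 in control libraries 1 to 3 and W1932, W1933 and W1934 in knockout libraries 1 to 3. Whether these codes stand for different agents is not settled by the labels, and if they do, the agent cannot be told apart from the deletion either. The labels do not say whether the line was 1 clone or whether the 3 libraries in each group were separate cultures, so the p-values measure the spread between libraries, which may be technical.

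Notch receptors are single-pass membrane proteins that are activated by Jagged and Delta-like ligands on a neighbouring cell. Ligand binding exposes the receptor to cleavage by an ADAM protease and then by gamma-secretase, and the freed intracellular domain joins the DNA-binding protein RBPJ and a Mastermind coactivator to switch on genes such as those of the HES and HEY repressors. In fat, Notch signalling is known for acting on the differentiation of preadipocytes, and its target HES1 for repressing genes of the beige programme. Tcf7l2 encodes a transcription factor through which beta-catenin switches on targets of Wnt signalling.

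The libraries held 26621293 to 33484764 counts. No pair of libraries of a group agreed within sampling noise (chi-square per degree of freedom 3.99 to 13.5), so all 6 were counted. Tcf7l2 itself was at 7.65 ± 1.49 CPM (SD, n = 3; counts scaled to library size with edgeR's TMM factors) in control and 6.12 ± 0.638 CPM (SD, n = 3) in knockout cells but was not called (log2 fold change -0.32, SE 0.14; adjusted p = 0.125 in edgeR). The floxed part of the gene is not named in the labels, and whole-gene counts do not check its loss. Of the markers of the sorted and differentiated cell types, all 10 adipocyte markers and all 8 preadipocyte markers had counts in every library. None of them was under 1 CPM in all 6 libraries, but Lep was in every control library and Dpp4 in every knockout library. Adipocyte markers were called higher in knockout cells in 10 of 10 cases, with a summed level of 5968 to 6206 CPM in control libraries and 8769 to 10437 CPM in knockout libraries. Preadipocyte markers summed to 3562 to 3772 and 3606 to 3727 CPM (1 of 8 called, Thy1, lower, and not called in 9 of 14 alternative fits). Within this sum, Ly6a was at 671 ± 115 and 918 ± 86.1 CPM, Pdgfra at 1247 ± 22.6 and 1135 ± 44.8 CPM and Itgb1 at 1111 ± 31.8 and 1031 ± 33.8 CPM (SD, n = 3 each), all 3 without overlap between the groups and not called (edgeR adjusted p of 0.0539, 0.0593 and 0.127). Thy1 did not overlap either. Over all tested genes, 37.9% were without overlap, 11.9% were called higher and 10.5% lower. Of 7 blood cell markers, 5 were under 1 CPM in every library, Adgre1 and Cd3e with no count, while the macrophage markers Csf1r (2.37 to 3.39 CPM) and Cd68 (1.17 to 2.04 CPM) were present in all 6 libraries and were not called. All 4 epithelial markers were under 1 CPM, and 9 of 11 endothelial markers were, with Cldn5 and Sox17 at no count.

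Receptor, ligand and target genes of the pathway differed between the groups, and not all in 1 direction. In knockout cells the receptor gene Notch3 and the ligand gene Jag2 were higher, 1.45-fold and 1.74-fold, while the target genes Hes1 and Hey1 were lower, 1.32-fold and 2.05-fold. Notch1, Notch2, Notch4, Jag1 and Dll1 were not called, and Heyl had too few counts for a test. Of 9 tested members, 4 were called (2 higher and 2 lower) at an edgeR adjusted p under 0.05 over all tested genes. Among all 14946 tested genes 22.4% were called, 11.9% higher and 10.5% lower. The members' median log2 fold change was 0.14, beside 0.00 over all tested genes. The same 4 members were those whose control and knockout libraries did not overlap, beside 37.9% of all tested genes (18.5% with the knockout libraries above and 19.3% with them below). At an edgeR adjusted p under 0.01, 3 members (Notch3, Hes1 and Hey1) and 12.9% of all tested genes were called. The alternative fits, which varied the scaling, filter, tool and libraries, called 12.9% to 26.4% of the genes each tested. Each of these 4 gave an exact 2-sided permutation p of 0.1, the smallest that 3 libraries against 3 can give.

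**Figure D1:**
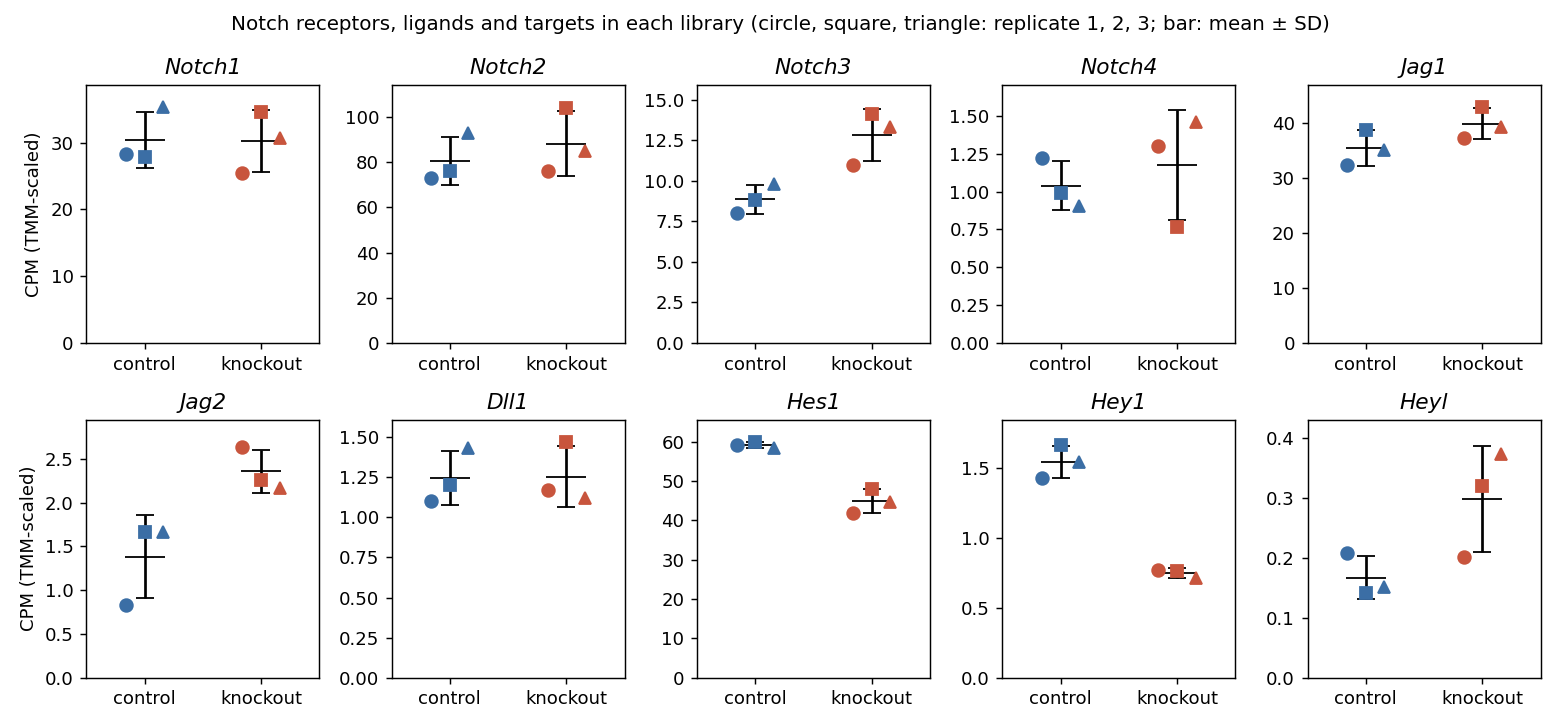
Levels of the 10 Notch genes in each library, in CPM on a linear axis from 0; circles, squares and triangles are replicates 1, 2 and 3 of the control (blue) and knockout (red) groups, and bars are the mean ± SD of 3 libraries. The groups stand apart for Notch3 and Jag2 (knockout higher) and for Hes1 and Hey1 (knockout lower) and overlap for the other 6 genes.

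Ordered by level per exon length, Hes1 was the most abundant member in every library, and Notch2 and Jag1 were the most abundant receptor and ligand. On the RPKM scale (CPM per kilobase of merged exons), Hes1 was at 29 ± 0.341 in control cells (SD, n = 3), Notch2 at 7.47 ± 0.986, Jag1 at 6.08 ± 0.547, Notch1 at 2.14 ± 0.292 and Notch3 at 1.1 ± 0.11. Hey1 (0.474 RPKM), Dll1 (0.295), Jag2 (0.199), Notch4 (0.129) and Heyl (0.0326) followed, all under 1 RPKM. Neighbours in this order had separate ranges over the 3 control libraries except Jag2 and Notch4. In knockout cells Hey1 (0.229 RPKM) stood below Jag2 (0.338) and Dll1 (0.297), and the ranges of Notch2 and Jag1 and those of Jag2 and Dll1 overlapped. Counted over the longest transcript in place of merged exons, Notch1 in control cells was 3.21 and Hes1 40.3 RPKM.

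**Figure D2:**
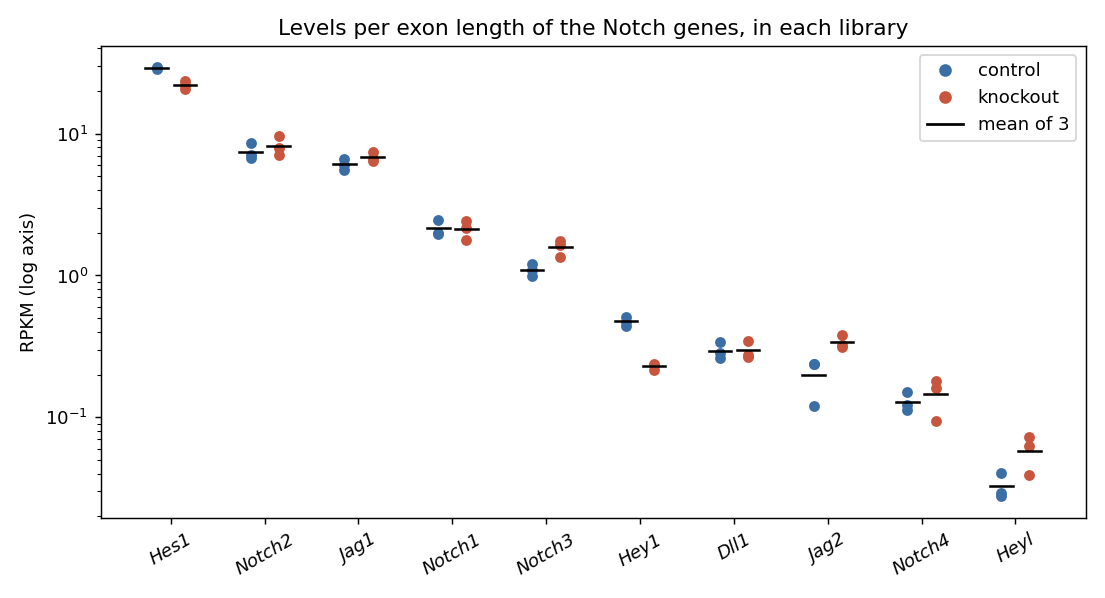
Levels per exon length (RPKM, log axis) of the 10 Notch genes in the 3 control (blue) and 3 knockout (red) libraries, ordered by the control mean; black lines are means. Hes1 lies highest in both groups, at 29 and 22 RPKM, and Heyl lowest, at 0.0326 and 0.0582 RPKM.

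Among the receptors, Notch3 was the one called. Notch3 (ENSMUSG00000038146; GRCm38 chromosome 17, 32120820 to 32166852, minus strand, 33 merged exons) encodes a receptor best known from the mural cells of blood vessels. Its level was 8.01, 8.79 and 9.79 CPM in control replicates 1 to 3 and 11, 14.1 and 13.3 CPM in knockout replicates 1 to 3. Every knockout library lay above every control library. The log2 fold change was 0.53 (SE 0.11; adjusted p = 0.00314 in edgeR), with a range of 0.46 to 0.64 and calls in all 14 alternative fits. An antisense gene, Gm17276, shares 6.03% of the exonic bases of Notch3 on the opposite strand and had at most 4 counts in any library.

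Notch2 (ENSMUSG00000027878; GRCm38 chromosome 3, 98013527 to 98150361, plus strand) was the most abundant receptor gene. It was at 72.8, 76.1 and 92.7 CPM in control and 75.9, 104 and 84.8 CPM in knockout replicates 1 to 3. The groups overlapped, and each had 1 high library, control replicate 3 and knockout replicate 2. The log2 fold change was 0.14 (SE 0.14; adjusted p = 0.57 in edgeR). The gene Gm42820 shares 5.02% of the exonic bases of Notch2 on the same strand and had 33 to 38 counts in a library.

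Notch1 (ENSMUSG00000026923; GRCm38 chromosome 2, 26457903 to 26516663, minus strand) showed the same pair of high libraries. Its values were 28.3, 27.8 and 35.3 CPM in control and 25.4, 34.6 and 30.7 CPM in knockout replicates 1 to 3. The group means were close, 30.5 ± 4.16 and 30.2 ± 4.65 CPM (SD, n = 3 each), and the log2 fold change was -0.01 (SE 0.13; adjusted p = 0.968 in edgeR). On the opposite strand, 0610009E02Rik shares 7.5% and Gm13568 2.91% of the exonic bases of Notch1. They had at most 23 and 7 counts in a library. Notch4 (ENSMUSG00000015468; GRCm38 chromosome 17, 34564268 to 34588503, plus strand), a receptor gene typical of endothelium, was near 1 CPM. It had 41, 28 and 24 counts in control and 39, 24 and 39 counts in knockout replicates 1 to 3, with no separation of the groups (log2 fold change 0.15, SE 0.25; adjusted p = 0.727 in edgeR).

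The receptors can also be read within each library, where a shift of all of them together drops out. Notch2 held 68.3%, 69% and 69.3% of the summed receptor RPKM in control and 68.1%, 69.4% and 66.4% in knockout replicates 1 to 3. The share of Notch3 was 10%, 10.6% and 9.77% in control and 13.1%, 12.5% and 13.9% in knockout replicates 1 to 3, so that all knockout libraries were higher, by 3.03 percentage points on average. The share of Notch1 was 20.1%, 19.1% and 20% against 17.2%, 17.5% and 18.2%, lower in all knockout libraries by a mean of 2.13 percentage points (knockout minus control -2.13). Both differences gave an exact 2-sided permutation p of 0.1, the smallest possible here, and 0.2 after Benjamini-Hochberg adjustment over the 4 receptors. Shares within a library sum to a fixed total, so a lower share of Notch1 need not be a lower level.

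**Figure D3:**
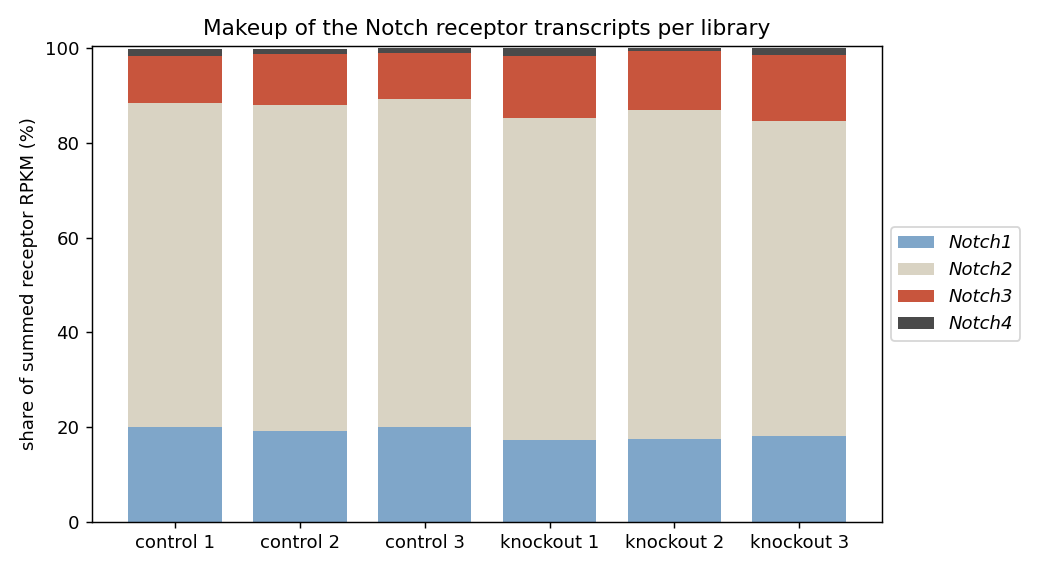
Share of the 4 receptor genes in their summed RPKM (%), 1 stacked bar per library. Notch2 takes 66.4% to 69.4% in every library, and the Notch3 segment is 9.77% to 10.6% in control libraries and 12.5% to 13.9% in knockout libraries.

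Notch1, Notch2, Notch3 and Dll1 were each highest within their group in control replicate 3 and in knockout replicate 2 (4 of the 10 members). These 2 libraries also stood apart on the second principal component of all tested genes (15.9% of the variance), at -15.1 and -14.1, with the other 4 libraries at 4.05 to 12. Without both of them, the log2 fold change of Notch3 was 0.53 (edgeR adjusted p = 0.00127), that of Notch2 0.11 (SE 0.056; adjusted p = 0.167 in edgeR) and that of Notch1 -0.01 (SE 0.08; adjusted p = 0.962 in edgeR). Hes1, Hey1 and Jag2 were also called without them, with log2 fold changes of -0.46, -1.05 and 0.98 (edgeR adjusted p of 3.56e-06, 0.00668 and 0.0126).

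Jag2 was the ligand gene that rose, at a low level. Jag2 (ENSMUSG00000002799; GRCm38 chromosome 12, 112907819 to 112929776, minus strand) encodes a Jagged ligand. It had 28, 47 and 44 counts in control and 79, 71 and 58 counts in knockout replicates 1 to 3, which is 0.834, 1.66 and 1.66 against 2.64, 2.26 and 2.17 CPM. All knockout libraries were above all control libraries, and control replicate 1 was the lowest of the 6. The log2 fold change was 0.80 (SE 0.23; adjusted p = 0.0232 in edgeR). The call was lost when control replicate 1 was left out (log2 fold change 0.50, edgeR adjusted p = 0.098) and when knockout replicate 1 was (0.71, edgeR adjusted p = 0.0663).

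Jag1 (ENSMUSG00000027276; GRCm38 chromosome 2, 137081456 to 137116644, minus strand), the most abundant ligand gene, was at 32.4, 38.8 and 35.1 CPM in control and 37.3, 42.9 and 39.3 CPM in knockout replicates 1 to 3. Control replicate 2 lay inside the knockout range. The log2 fold change was 0.17 (SE 0.074; adjusted p = 0.121 in edgeR), and it was called in 1 of 14 alternative fits, that with no filter on low counts (edgeR adjusted p = 0.0496). Dll1 (ENSMUSG00000014773; GRCm38 chromosome 17, 15367354 to 15376872, minus strand), a Delta-like ligand gene, had 37, 34 and 38 counts in control and 35, 46 and 30 counts in knockout replicates 1 to 3. Its groups overlapped (log2 fold change 0.02, SE 0.20; adjusted p = 0.947 in edgeR). The non-coding gene A930024N18Rik shares 20.5% of the exonic bases of Dll1 on the opposite strand and had at most 3 counts in a library.

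RefSeq's promoter table (GRCm38.p6) was matched for 7 members, with 8 start sites. Hes1, Hey1 and Heyl were not matched. The 250 bases before the start site of the 2 members that rose, Notch3 and Jag2, and of Jag1, the ligand gene with the most matches, are shown 5′ to 3′ on the gene's strand, with matches to CACGCG, a box that HES and HEY repressors bind, in capitals. Notch3 is chr17:32166891-32167140, Jag2 chr12:112929496-112929745 and Jag1 chr2:137116521-137116770, all on the minus strand. The start sites are RefSeq's and differ from the GENCODE M21 gene positions given above. By those positions the Jag2 stretch lies wholly inside its gene and the Jag1 stretch partly inside, while that of Notch3 lies outside. The stretches of Notch1 and of 1 of the 2 Dll1 start sites also lie inside their genes.
Notch3: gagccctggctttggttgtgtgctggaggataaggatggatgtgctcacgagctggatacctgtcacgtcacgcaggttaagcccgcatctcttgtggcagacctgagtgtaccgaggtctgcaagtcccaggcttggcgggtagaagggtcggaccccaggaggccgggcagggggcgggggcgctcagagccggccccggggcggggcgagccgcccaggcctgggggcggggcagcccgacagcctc
Jag2: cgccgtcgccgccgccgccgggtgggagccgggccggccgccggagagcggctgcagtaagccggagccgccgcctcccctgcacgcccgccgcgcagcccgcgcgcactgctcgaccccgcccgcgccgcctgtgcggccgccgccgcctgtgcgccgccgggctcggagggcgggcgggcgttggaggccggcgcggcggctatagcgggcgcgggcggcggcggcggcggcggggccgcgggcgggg
Jag1: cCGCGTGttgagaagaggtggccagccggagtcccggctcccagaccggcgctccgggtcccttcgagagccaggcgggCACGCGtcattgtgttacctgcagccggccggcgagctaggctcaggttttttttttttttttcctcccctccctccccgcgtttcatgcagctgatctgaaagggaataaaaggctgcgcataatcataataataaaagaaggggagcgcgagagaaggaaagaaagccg
Searched on both strands, CACGCG was found in 3 of the 8 member promoters (Jag1, Notch2 and 1 of the 2 start sites of Dll1), beside 7.62% of 32851 promoters of the table. Jag1 held it on both strands, starting 171 and 249 bases before the start site. CACGCG itself holds CpG pairs, and the 3 promoters with it were rich in them, as were most of the member promoters without it. Those with it had 34 (Notch2), 20 (Jag1) and 13 (Dll1) CpG pairs, beside a median of 6 over all promoters. Those without it had 54 (Jag2), 21 (the other Dll1 start site), 17 (Notch3), 16 (Notch1) and 4 (Notch4). The share of CACGCG among promoters of like CpG content was not tested. TGGGAA, the core of the RBPJ site, was in 0 of the 8 and in 21.6% of all promoters. CACGTG, another HES and HEY box, and CTTTGAT, the core of the TCF/LEF site, were also in 0 of the 8, and in 6.02% and 3.21% of all promoters. Only CACGCG was matched, so no overlap between different motifs could arise. The Jag2 stretch, inside the gene by GENCODE, was 87.2% G and C with 54 CpG pairs. That of Notch3 was 68.8% with 17, beside medians of 52.4% and 6 over all promoters. A match or its absence describes these letters only.

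Both target genes that could be tested fell. Hes1 (ENSMUSG00000022528; GRCm38 chromosome 16, 30064384 to 30067796, plus strand) encodes a basic helix-loop-helix repressor and is the classical direct Notch target, though other pathways also drive it. Its level was 59.1, 59.8 and 58.4 CPM in control and 41.8, 48 and 44.7 CPM in knockout replicates 1 to 3. The control libraries lay close together and above every knockout library. Hes1 was 1.32-fold lower (log2 fold change -0.40, SE 0.058; adjusted p = 2.32e-04 in edgeR). The range over 14 alternative fits was -0.46 to -0.35, with a call in each.

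Hey1 (ENSMUSG00000040289; GRCm38 chromosome 3, 8663359 to 8667256, minus strand), a repressor gene of the related HEY family, had the largest fitted change of the 9 tested members. It had 48, 47 and 41 counts in control and 23, 24 and 19 counts in knockout replicates 1 to 3, or 1.43, 1.66 and 1.54 against 0.769, 0.764 and 0.709 CPM. The groups did not overlap, and the knockout libraries were close together. Hey1 was 2.05-fold lower (log2 fold change -1.04, SE 0.20; adjusted p = 0.00173 in edgeR), and it was called in all 14 alternative fits (-1.10 to -0.99).

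Heyl (ENSMUSG00000032744; GRCm38 chromosome 4, 123233556 to 123249875, plus strand), another HEY gene, was removed by the filter on low counts. It had 7, 4 and 4 counts in control and 6, 10 and 10 counts in knockout replicates 1 to 3, so that the groups overlapped. Fitted without a filter its log2 fold change was 0.80 (SE 0.51; adjusted p = 0.429 in edgeR), which did not pass the threshold.

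**Figure D4:**
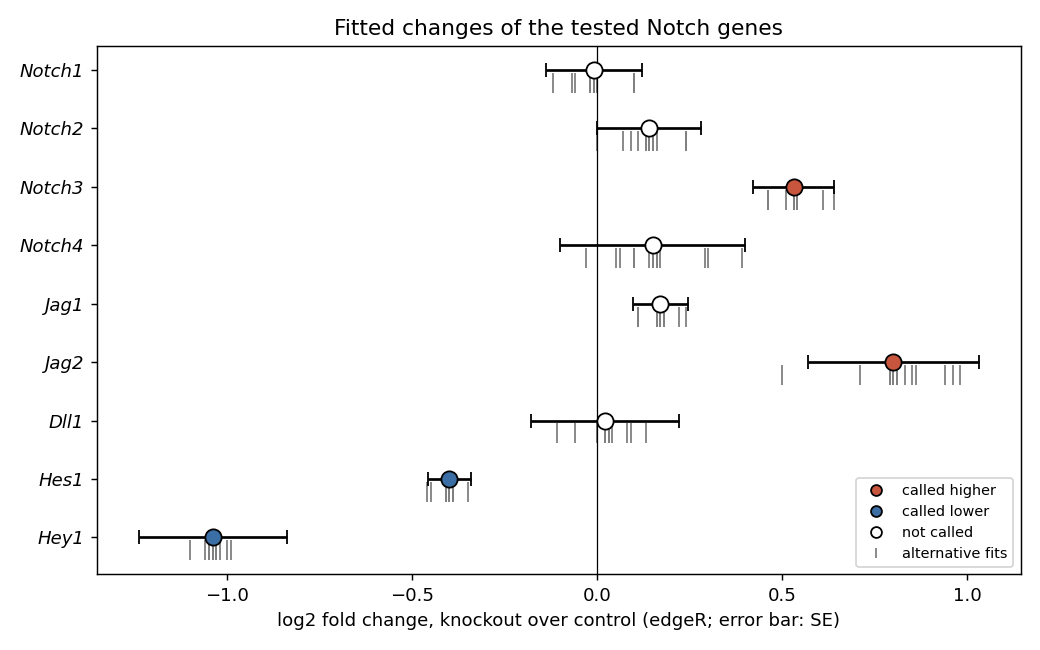
Log2 fold change, knockout over control, of the 9 tested Notch genes; points are the edgeR estimates with SE bars, filled where called (red higher, blue lower), and grey ticks are the 14 alternative fits. Hes1 (-0.46 to -0.35) and Hey1 (-1.10 to -0.99) stay left of 0 and Notch3 (0.46 to 0.64) and Jag2 (0.50 to 0.98) right of 0 in all of them.

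In bulk RNA, fewer cells of a type and less RNA per cell cannot be told apart. The rise of all 10 adipocyte markers (median log2 fold change 0.75) accompanied these changes. The mural markers, chosen since Notch3 marks such cells, summed to 768 to 816 CPM in control libraries and 821 to 887 CPM in knockout libraries. Most of this sum came from Acta2 and Tagln, neither of them called (edgeR adjusted p of 0.0542 and 0.993). Acta2 was at 465 ± 14.8 and 511 ± 16.9 CPM and Tagln at 277 ± 16.6 and 277 ± 22.6 CPM (SD, n = 3 each). Of 7 tested members, 3 were called higher (Des, Mcam and Rgs5) and none lower, beside 11.9% and 10.5% of all tested genes. Rgs5 was not called by DESeq2 or with control replicate 1, control replicate 2 or knockout replicate 1 left out. The pericyte markers Kcnj8, Abcc9 and Higd1b were under 1 CPM in every library. The endothelial markers summed to 23.8 to 25.9 and 27.1 to 28.6 CPM, nearly all from Kdr and Tek, with Kdr called higher and Cdh5 and Tie1 at no more than 1 count in a library. The part of these shifts in the Notch results was not tested.

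Other genes of the pathway, taken from 9 lists, changed in either direction by small steps. Of 87 genes, 79 were tested, and 11 rose, 11 fell and 57 were not called (27.8% called, near the 22.4% of all tested genes; median log2 fold change 0.02, beside 0.00). The counts depend on single libraries, with 5 higher and 2 lower without control replicate 1, 6 and 4 without control replicate 2, 11 and 5 without control replicate 3, 13 and 5 without knockout replicate 1, 7 and 12 without knockout replicate 2, and 5 and 3 without knockout replicate 3. Called in all 14 alternative fits were 7 genes: Lfng, Gxylt2, Neurl1b, Dtx4, Dtx2, Tle1 and Cdkn1a.

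Of 11 tested enzymes that put sugars on the Notch extracellular domain, 6 fell, 1 rose and 4 were not called, with a median log2 fold change of -0.19. Among all tested genes 10.5% were called lower and 11.9% higher. The riser was Lfng, a Fringe enzyme that changes which ligands a receptor responds to, at 13.5 ± 0.591 in control and 18.4 ± 1.74 CPM in knockout cells (SD, n = 3 each; log2 fold change 0.45, SE 0.084; adjusted p = 0.00163 in edgeR). Mfng, another Fringe gene and a choice made with its values in view, was at 1.43, 1.24 and 1.13 against 0.769, 0.924 and 0.822 CPM, without overlap but not called (log2 fold change -0.60, SE 0.21; adjusted p = 0.0526 in edgeR). Gxylt2, a xylosyltransferase gene, fell 1.23-fold (49.8 ± 3.13 to 40.3 ± 1.77 CPM; edgeR adjusted p = 0.00275). Xxylt1 and Poglut2 fell 1.16-fold each (edgeR adjusted p of 0.0362 and 0.0125). Xxylt1 was not called in 6 of 14 alternative fits (without any 1 of the control replicates, without knockout replicate 2 or 3, or without control replicate 3 and knockout replicate 2 together; edgeR adjusted p up to 0.106), and Poglut2 in 1 (without control replicate 1, edgeR adjusted p = 0.0539). The other falls, of Pofut1, Poglut1 and Gxylt1, were not called in 8, 7 and 5 of the 14 alternative fits (edgeR adjusted p up to 0.11, 0.2 and 0.141), so that Gxylt2 was the 1 fall of the 6 called in every fit.

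Genes of receptor cleavage gave no call. Of 10 tested, 0 were called by edgeR, beside 22.4% of all tested genes, with 0 at an unadjusted p under 0.05. In the 14 alternative fits 0 were called as well, with 0 to 2 at an unadjusted p under 0.05 (0 in DESeq2 and in limma-voom, and 2 without knockout replicate 1). The protease genes Adam17 and Adam10, the 2 most abundant, were at 153 ± 3.87 and 117 ± 2.6 CPM in control and 146 ± 3.61 and 119 ± 3.18 CPM in knockout cells (SD, n = 3 each). Their log2 fold changes were -0.06 (SE 0.045; adjusted p = 0.4 in edgeR) and 0.03 (SE 0.046; adjusted p = 0.695 in edgeR). Of 5 other ligand genes 2 were tested, and 0 were called by edgeR, with 0 at an unadjusted p under 0.05. In the alternative fits 0 were called too, but the unadjusted p was under 0.05 for Dlk1 without control replicate 3 and for both Dlk1 and Dlk2 without control replicate 3 and knockout replicate 2. DESeq2 gave Dlk2 no adjusted p. Dlk1, a preadipocyte marker that resembles the Delta ligands, was at 6.61, 4.39 and 10.2 CPM in control and 6.92, 8.54 and 8.44 CPM in knockout replicates 1 to 3, with overlap through control replicate 3 (log2 fold change 0.18, SE 0.29; adjusted p = 0.714 in edgeR). Without that library its log2 fold change was 0.52 (edgeR adjusted p = 0.0538), and without control replicate 2 it was -0.07 (edgeR adjusted p = 0.857). Dlk2 was at 0.373 ± 0.145 and 0.47 ± 0.207 CPM (SD, n = 3 each; log2 fold change 0.36, SE 0.41; adjusted p = 0.585 in edgeR), with values from near 0 without knockout replicate 1 to 0.99 without control replicate 3 and knockout replicate 2. The Delta-like ligand genes Dll3 and Dll4 had at most 2 counts in a library.

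Genes that act on the ligand and receptor at the membrane were split. Of 14 tested genes of endocytosis and turnover, 3 rose, 3 fell and 8 were not called (median log2 fold change -0.01). Among all tested genes 11.9% were called higher and 10.5% lower. Neurl1b, a ubiquitin ligase gene of ligand uptake, rose 1.45-fold, from 9.59 ± 0.841 to 13.8 ± 1.58 CPM (SD, n = 3 each; edgeR adjusted p = 0.0019). The Deltex genes Dtx4 (1.24-fold, edgeR adjusted p = 9.18e-04) and Dtx2 (1.21-fold, edgeR adjusted p = 0.00382) rose, while Dtx3 fell 1.17-fold (edgeR adjusted p = 0.0392). Numbl, which belongs to the Numb family of Notch inhibitors, fell 1.13-fold and the ligand ubiquitin ligase gene Mib2 fell 1.12-fold (edgeR adjusted p of 0.0378 and 0.0462). Of these 3 falls none was called when replicate 1 or 3 of either group was left out, with edgeR adjusted p up to 0.154 (Dtx3), 0.156 (Numbl) and 0.149 (Mib2). Dtx3, Numbl and Mib2 were not called in 4, 7 and 10 of the 14 alternative fits. For Numbl these included DESeq2 and the fit with no filter. For Mib2 they included DESeq2, limma-voom, upper-quartile scaling and both changes of the filter.

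In the nucleus, 2 of 9 tested genes of the activating complex were called, near the 22.4% of all tested genes. Both rose, and the median log2 fold change of the 9 was 0.17, beside 0.00 over all tested genes. Rbpj, the DNA-binding partner of the Notch intracellular domain, was at 32.4, 31 and 36 CPM in control and 38.1, 39.7 and 38.9 CPM in knockout replicates 1 to 3. Every knockout library was above every control library, and the fold was 1.17 (log2 fold change 0.23, SE 0.064; adjusted p = 0.0188 in edgeR). The acetyltransferase gene Ep300 also rose 1.17-fold (edgeR adjusted p = 0.0333). Neither was called with control replicate 1, control replicate 2 or knockout replicate 3 left out (edgeR adjusted p up to 0.104 for Rbpj and 0.132 for Ep300), and Ep300 also not by DESeq2 or without knockout replicate 2. Of 17 genes in the corepressor list, 2 rose, 1 fell and 14 were not called, beside 11.9% higher and 10.5% lower among all tested genes. Whether each listed gene acts as a corepressor in these cells was not tested. The Groucho-type gene Tle1 fell 1.23-fold, from 31.8 ± 1.22 to 25.9 ± 1.34 CPM (SD, n = 3 each; edgeR adjusted p = 0.00447). Tle3 rose 1.2-fold and Tle5 1.16-fold (edgeR adjusted p of 0.0247 and 0.0277), both not called when replicate 1 or 2 of the control or 2 or 3 of the knockout group was left out (edgeR adjusted p up to 0.133 and 0.131).

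Further genes of the HES and HEY type, and further targets of Notch, were taken from small lists. Among all tested genes 22.4% were called, and the 4 and 10 genes tested here are too few to compare with that share. Of 4 tested further genes of the HES and HEY type, Bhlhe41 fell 1.3-fold (edgeR adjusted p = 0.036), with overlapping groups and no call without any 1 of the 3 control replicates, knockout replicate 1 or knockout replicate 3 (edgeR adjusted p up to 0.141). Hey2, chosen after its values were seen, had 46, 50 and 40 counts in control and 30, 43 and 46 counts in knockout replicates 1 to 3. Its groups overlapped (log2 fold change -0.19, SE 0.21; adjusted p = 0.585 in edgeR). Nrarp, a direct Notch target and feedback inhibitor also chosen after its values were seen, had 6, 8 and 5 against 4, 2 and 5 counts and was not tested. Of 10 tested targets shared with other pathways, 1 was called: the cell cycle inhibitor gene Cdkn1a rose 1.29-fold, from 79.6 ± 4.05 to 102 ± 7.42 CPM (SD, n = 3 each; edgeR adjusted p = 5.77e-04).

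Of 3 genes known as targets of HES1 in fat, the coregulator genes Ppargc1a and Prdm16 were called higher in knockout cells and Dlk1 was not called. Among all tested genes 11.9% were called higher. Prdm16, which directs the brown and beige fat programme, was at 3.99, 4.22 and 4.03 CPM in control and 4.95, 5.41 and 5.53 CPM in knockout replicates 1 to 3, without overlap. Ppargc1a, a coactivator of mitochondrial genes, was at 3.6, 3.4 and 5.54 CPM in control and 5.59, 6.05 and 7.02 CPM in knockout replicates 1 to 3, also without overlap, though control replicate 3 came close to knockout replicate 1. Their log2 fold changes were 0.38 (SE 0.11; adjusted p = 0.0269 in edgeR) and 0.58 (SE 0.17; adjusted p = 0.0285 in edgeR). Prdm16 was not called in 7 and Ppargc1a not in 4 of 14 alternative fits, both not when replicate 1 or 2 of the control or 2 or 3 of the knockout group was left out, with edgeR adjusted p up to 0.1 and 0.141. All 10 adipocyte markers rose in the same libraries. What part that shift or the lower level of Hes1 has in these values was not tested.

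**Figure D5:**
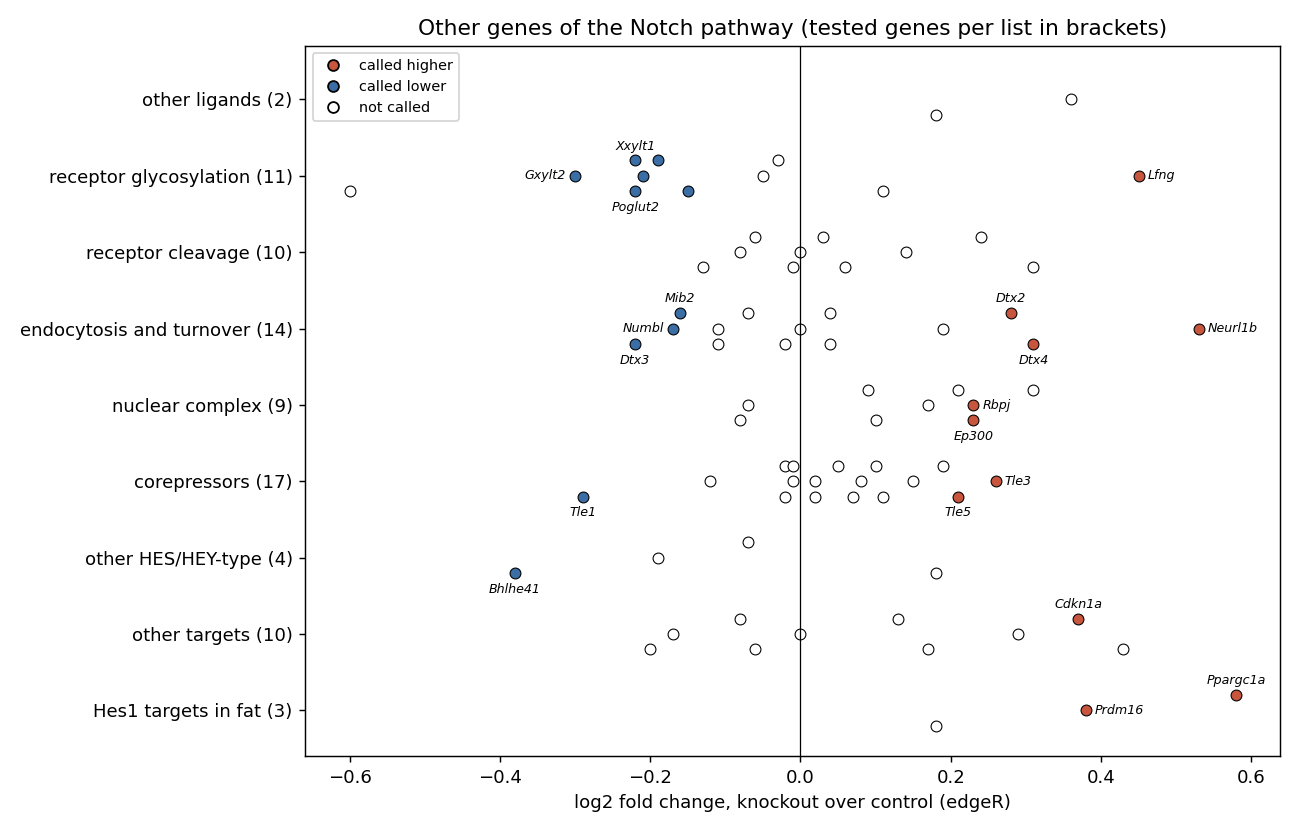
Log2 fold change (edgeR, knockout over control) of the tested genes of 9 lists of the Notch pathway, 1 row per list with its number of tested genes. Filled points are called (red higher, blue lower) and are labelled, except those of Pofut1, Poglut1 and Gxylt1. Calls lie between -0.38 (Bhlhe41) and 0.58 (Ppargc1a), and none of the 10 genes of receptor cleavage is called.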

How the data were processed

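Per the labels' protocols, total RNA of 6 libraries was depleted of ribosomal RNA and sequenced with a strand-specific kit. The deposited values are raw counts of reads per gene, for 49671 Ensembl genes. Software named in the submitters' processing notes was STAR (2.5.2b), featureCounts (1.5.1) and DESeq2 (1.16.0), with build GRCm38. Not given in the sources used here are the annotation release, the strand setting and how reads mapping to several places were treated. Without a strand setting, genes overlapping on opposite strands may not be told apart, so overlaps stand beside the members. Each column was tied to a library by the number in its title and to a group by genotype.

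Symbols, positions and exon lengths are those of GENCODE M21 (GRCm38), where 49326 genes had a symbol. Knockout was set against control by a robust quasi-likelihood F-test in edgeR (4.0.16, R 4.3.3) with TMM scaling, filterByExpr and no covariate. This tested 14946 genes. "Called" means a Benjamini-Hochberg adjusted p under 0.05 over all of them. SE is the absolute log2 fold change over the root of F. The 14 alternative fits changed the scaling (size factors of DESeq2, upper quartile, total count), the filter (none, or CPM of 1 or more in 3 libraries) or the tool (DESeq2 1.42.0, limma-voom 3.58.1), or left out each library or control replicate 3 together with knockout replicate 2. A threshold of 0.01 was also tried. The fit was tested on simulated data with 200 changed genes.

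The members, lists and alternatives were chosen with earlier results of these data known. Besides the members, the rule named up to 3 called genes per direction of each list by fold size (average log2 CPM of at least 0), or the 2 most abundant where none was called. Poglut2, Poglut3 and Tle5 were matched through older symbols. One blood cell marker of the lists is not reported here.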

Additional observations from a re-analysis of the deposited data

How the results depend on the processing

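Hes1, Hey1 and Notch3 kept their direction and call in all 14 alternative fits, and Jag2 kept its direction. With 1 library left out, 1 to 2 members were called higher and 2 lower, 5 to 13 other pathway genes higher and 2 to 12 lower, and 2145 (without control replicate 1) to 3475 genes of all tested, with 2178 without knockout replicate 3. Without both control replicate 3 and knockout replicate 2, 3957 genes and 15 pathway genes higher were called. At an adjusted p of 0.01, 1934 genes, 1 member higher, and 5 pathway genes higher and 2 lower were called. DESeq2's Wald test called 7 pathway genes lower, against 11 in edgeR. Of the 5 tested members that were not called, Jag1 kept its sign (0.11 to 0.24) and the other 4 changed it in at least 1 fit: Notch1 (4.8e-05 without a filter on low counts, 0.00047 with a CPM of at least 1 in 3 samples, -0.12 to 0.10 with 1 library left out), Notch2 (-0.0015 to 0.24), Notch4 (-0.03 to 0.39) and Dll1 (-0.11 to 0.13, and -0.0037 without control replicate 3 and knockout replicate 2), all as log2 fold changes. The cause was not tested. No paired analysis was possible because the labels number libraries 1 to 6 across the groups and share no replicate number. Low counts limit Jag2, Hey1, Notch4, Dll1 and Heyl most.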
